A study of Mus musculus with 32 samples.

Results

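Prox1, Dsp, Tdo2, C1ql2, Neurod2, Neurod6, Wfs1 and Spink8 are genes by which dentate granule neurons and CA1 pyramidal neurons of the mouse hippocampus are recognised. They were chosen by name as markers and regulators of these neurons, and they are 8 of the 54146 genes in the count table. Hippocampus and striatum were taken as single hemispheres, each library from 1 male mouse (C57BL/6J, 12 weeks old). The drug was CI-994, which blocks class I histone deacetylases and is called HDACi here. It was given into the peritoneum at 30 mg/kg, and control mice got only its solvent of dimethyl sulfoxide, Kolliphor and saline (vehicle). After 1 hour the mice went through contextual fear conditioning (CFC), with 2 shocks of 0.2 mA to the feet, or were placed in the same chamber unshocked (context). Tissue was taken 1 hour after that. Each of the 8 groups (2 regions, 2 treatments, 2 behaviours) held 4 libraries. Whole cages went through 1 behaviour, so cage and behaviour cannot be told apart, and in bulk tissue fewer cells of a type and less RNA per cell cannot be told apart either.

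The dentate gyrus receives the main cortical input to the hippocampus, and its granule cells project through mossy fibres to CA3, whose axons reach CA1. Prox1 is a homeodomain transcription factor that sets and maintains granule cell identity. Neurod2 and Neurod6 are basic helix-loop-helix (bHLH) transcription factors of forebrain excitatory neurons, and Neurod6 marks pyramidal more than granule neurons. Inhibition of histone deacetylases raises histone acetylation, a mark of active chromatin.

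Library totals ran from 26026024 to 36670767 counts. Among hippocampus libraries, HDACi CFC replicates 2 and 4 stood apart: their summed level of 14 choroid plexus genes was 10100 and 9860 CPM (counts scaled to library size), against 204 to 327 CPM in vehicle context, 170 to 319 CPM in vehicle CFC and 309 to 928 CPM in HDACi context libraries. All 14 of these genes were called higher in HDACi CFC than in vehicle CFC, with Ttr at 5510 and 5250 CPM in those 2 libraries and at 11.2 and 5.2 CPM in the other 2. Choroid plexus secretes cerebrospinal fluid and lies beside the hippocampus. Among striatum libraries, vehicle CFC replicate 3 and HDACi CFC replicate 2 were low in medium spiny neuron genes, whose lowest sums were 8720 and 8440 CPM in these groups and 10400 CPM or more in the context groups. For the conditioned groups, values without these 4 libraries are given beside the results they change.

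In the hippocampus of vehicle context mice 7 of the 8 genes stood far above the striatum, and Wfs1 did not. The share of all tested genes called different between the regions in these mice was 44.1%, and 24.2% were higher in hippocampus. The 7 genes had values that did not overlap between the regions, as did 39.7% of all tested genes. The list of dentate markers behaved in the same direction: of its 14 genes outside the 8, 12 were higher and 2 lower in hippocampus. All 18 medium spiny neuron genes, which mark the striatum, were lower there.

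C1ql2, a secreted C1q-like protein of mossy fibre synapses, was at 40.7, 27.7, 22.3 and 18.1 CPM in the 4 hippocampus libraries of vehicle context mice and at 0.0296 to 0.185 CPM in the striatum libraries. The fitted difference was 280-fold (log2 8.13, 95% interval 7.19 to 9.08, adjusted p = 7.91e-15 by edgeR's quasi-likelihood F test), and it rests on only 1 to 6 counts per striatum library. Dsp, a desmosomal plaque protein found in granule cells, was at 114, 91.5, 101 and 88.9 CPM in hippocampus and at 0.296 to 0.596 CPM in striatum, a difference of 229-fold (adjusted p = 7.96e-23). C1ql2 and Dsp were thus under 1 CPM in each of the 4 striatum libraries.

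Tdo2, the first enzyme of tryptophan breakdown by the kynurenine route, was 47.4-fold higher in hippocampus (log2 5.57, SE 0.294). Prox1 was 10.8-fold higher (log2 3.44, SE 0.12), and its striatal level was well above the counting floor, with 335 to 649 counts in each of the 16 striatum libraries. Spink8, a Kazal-type protease inhibitor that marks CA1, was 34.4-fold higher (log2 5.10, SE 0.272). The hippocampus and striatum values of these genes did not overlap.

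Neurod2 and Neurod6 were 23.6-fold and 23.9-fold higher in hippocampus, with larger errors (log2 4.56, SE 0.745, and 4.58, SE 0.909). Without vehicle context replicate 4 of striatum, a library high in excitatory neuron genes, the log2 differences were 5.24 and 5.39. Wfs1, the endoplasmic reticulum membrane protein wolframin, gave a log2 difference of -0.14 (95% interval -0.59 to 0.31, adjusted p = 0.649). Its 4 vehicle context libraries read 97.6, 77.3, 86.7 and 56.3 CPM in hippocampus and 79.8, 123, 63.6 and 73.9 CPM in striatum. The ranges of the 2 regions overlapped, so Wfs1 did not separate hippocampus from striatum.

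**Figure D1:**
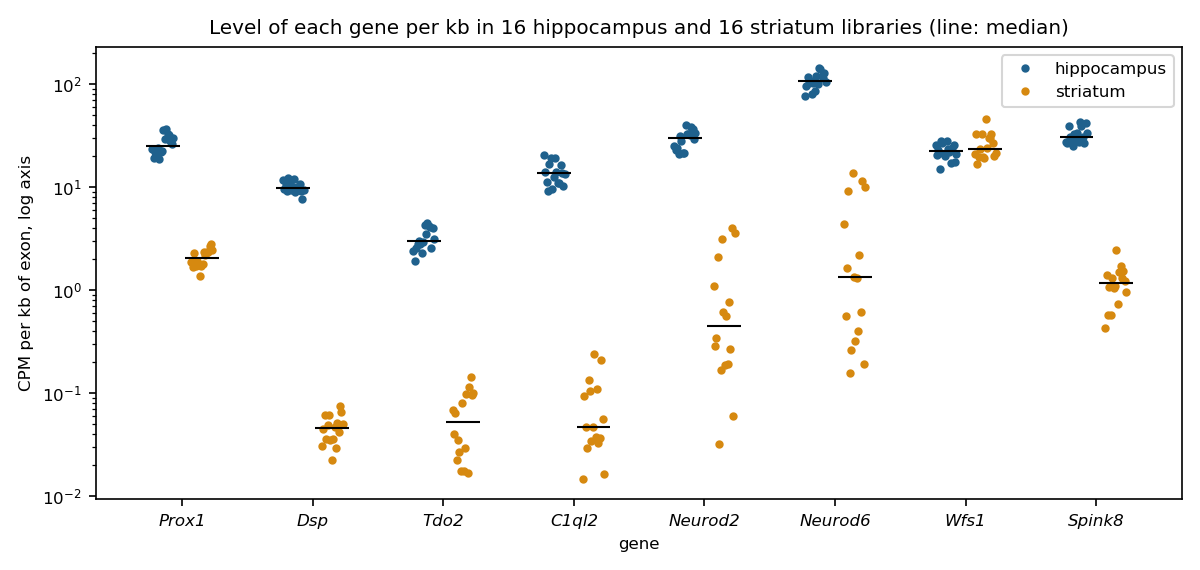
Level of each gene in CPM per kb of exon (log axis) in the 16 hippocampus libraries (blue) and the 16 striatum libraries (orange), with a black line at the median. The regions overlap for Wfs1 alone; in striatum the highest library was 124 times the lowest for Neurod2 and 86.7 times for Neurod6.

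Per kb of exon, which allows genes to be compared, Neurod6 was the most abundant of the 8 in hippocampus, with a median of 106 CPM per kb over 16 libraries (76.1 to 144). Spink8 (median 30.4), Neurod2 (30.1), Prox1 (25.2) and Wfs1 (22.4) followed, and the ranges of these neighbours overlapped. C1ql2 had a median of 13.6 and a range of 9.07 to 20.4, which overlapped that of Dsp (median 9.87, 7.61 to 12.2). Tdo2 was the lowest, at a median of 2.97 (1.93 to 4.42), below every library of the other 7 genes.

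Under the drug after context exposure, Prox1, Tdo2 and Neurod2 rose in hippocampus, 3 of the 8 genes, and none fell. The background for this comparison was 19.8% of all tested genes called, 6.55% being called and higher. The same 3 genes had groups that did not overlap, which held for 22.4% of all tested genes. Prox1 read 194, 159, 182 and 168 CPM in vehicle context and 302, 242, 309 and 274 CPM in HDACi context libraries, or 176 ± 15.4 against 282 ± 30.5 CPM (SD, n = 4). Every HDACi library lay above every vehicle library. The difference was 1.6-fold (log2 0.68, SE 0.0957, adjusted p = 7.74e-05).

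Tdo2 read 9.26, 7.47, 9.96 and 10.8 CPM with vehicle and 16.7, 13.7, 17.1 and 16.3 CPM with HDACi. Again no values overlapped, and the rise was 1.7-fold (log2 0.77, SE 0.15, adjusted p = 0.00137). Neurod2 read 78.6, 72.1, 75 and 66 CPM with vehicle and 125, 103, 102 and 101 CPM with HDACi. Its groups stood apart as well, with a rise of 1.48-fold (log2 0.56, SE 0.119, adjusted p = 0.00256).

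Among the genes that were not called, Neurod6 read 164, 204, 252 and 217 CPM with vehicle and 254, 214, 309 and 298 CPM with HDACi after context. Its groups overlapped and the log2 change of 0.36 (SE 0.134) had an adjusted p of 0.069. It was called without vehicle context replicate 3 (log2 0.47, adjusted p = 0.028) and without HDACi context replicate 2 (log2 0.46, adjusted p = 0.0252). Spink8 gave 0.21 (95% interval -0.13 to 0.54), Wfs1 0.10 (-0.27 to 0.47) and Dsp -0.01 (-0.25 to 0.23), all on the log2 scale. C1ql2 gave 0.00 with a wider interval of -0.53 to 0.54, and its 4 libraries spread from 18.1 to 40.7 CPM with vehicle and from 21.6 to 37.7 CPM with HDACi. Of the 4 granule cell genes, Prox1 and Tdo2 were thus called, while Dsp, with a narrower interval than Tdo2, was not. Differences between genes were not tested.

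Replicate numbers were taken to pair these libraries, since every same-numbered pair of vehicle context and HDACi context deviated together (correlations 0.46 to 0.67). Differently numbered pairs were not compared, so pairing by single number was not shown. With the replicate number as a block 5 of the 8 genes were called, Neurod6 (log2 change 0.36, adjusted p = 0.0209) and Spink8 (log2 0.21, adjusted p = 0.0233) in addition. Spink8 was higher with HDACi in 4 of 4 pairs, from 22.5, 21.7, 31.8 and 25.1 CPM to 27.2, 22.6, 35.1 and 31.8 CPM.

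**Figure D2:**
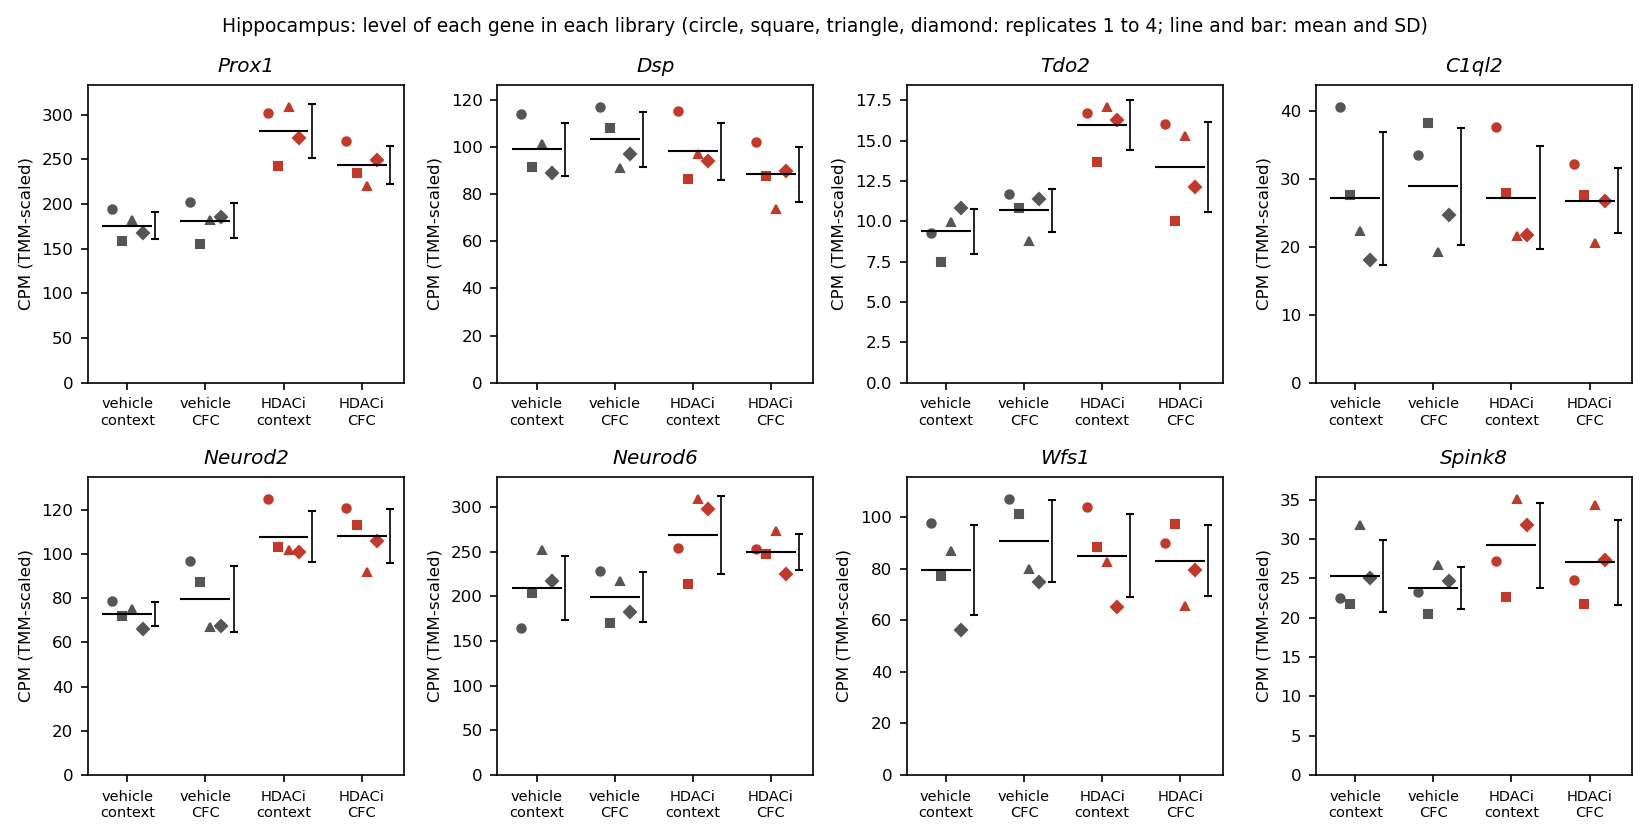
CPM of each gene in each of the 16 hippocampus libraries by group (grey vehicle, red HDACi; marker shape gives the replicate number; line and bar give mean and SD, n = 4; axes start at 0). Prox1 and Neurod2 are higher on average with HDACi after either behaviour, and Tdo2 after context. Vehicle and HDACi groups overlap for Neurod2 and Tdo2 after CFC, and for Dsp, C1ql2, Neurod6, Wfs1 and Spink8 after both behaviours.

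After fear conditioning, Prox1 and Neurod2 rose in hippocampus, 2 of the 8 genes, beside 20.8% of all tested genes called and 7.42% called and higher. Prox1 read 202, 155, 182 and 186 CPM with vehicle and 270, 235, 220 and 249 CPM with HDACi. No value overlapped, and the rise was 1.34-fold (log2 0.43, SE 0.0955, adjusted p = 0.00402). Prox1 alone of the 8 had groups apart, a property of 21.4% of all tested genes.

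Neurod2 read 97, 87.3, 67 and 67.5 CPM with vehicle and 121, 113, 92.1 and 106 CPM with HDACi after conditioning. The lowest HDACi library lay below the highest vehicle library, and the change was 1.36-fold (log2 0.44, SE 0.118, adjusted p = 0.0135). This call was lost without vehicle CFC replicate 4 (adjusted p = 0.0523) and without the 2 libraries high in choroid plexus genes (log2 0.42, adjusted p = 0.118).

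Tdo2 read 11.7, 10.8, 8.78 and 11.4 CPM with vehicle and 16, 10, 15.3 and 12.1 CPM with HDACi, which overlapped (log2 0.33, SE 0.148, adjusted p = 0.143). Its 2 lower HDACi values, 10 and 12.1 CPM, belong to the 2 libraries high in choroid plexus genes. Without them the log2 change was 0.55 (adjusted p = 0.0202), and Tdo2 was also called without HDACi CFC replicate 2 alone (log2 0.44, adjusted p = 0.0412). Prox1 kept a log2 change of 0.44 without these libraries (adjusted p = 0.0302). The part of these libraries' choroid plexus RNA in the Neurod2 and Tdo2 calls was not tested further.

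Neurod6 read 228, 170, 217 and 182 CPM with vehicle and 253, 247, 273 and 225 CPM with HDACi after conditioning (log2 0.32, SE 0.134, adjusted p = 0.104). Dsp read 117, 108, 90.9 and 96.8 CPM with vehicle and 102, 87.7, 73.5 and 89.9 CPM with HDACi, so that it was lower on average (log2 -0.23, SE 0.113, adjusted p = 0.185). Both pairs of groups overlapped. Once trends of each library with GC content and transcript length were taken out, 5 of the 8 genes were called after conditioning: Prox1, Neurod2, Tdo2 (log2 0.47), Neurod6 (log2 0.47) and, downward, Dsp (log2 -0.31, adjusted p = 0.0263). With that setting 5695 of all 18261 genes were called, so the wider call was not a property of these genes alone.

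C1ql2, Wfs1 and Spink8 were not called under the drug after conditioning, with log2 changes of -0.11 (95% interval -0.64 to 0.43), -0.13 (-0.50 to 0.24) and 0.18 (-0.15 to 0.52).

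**Figure D3:**
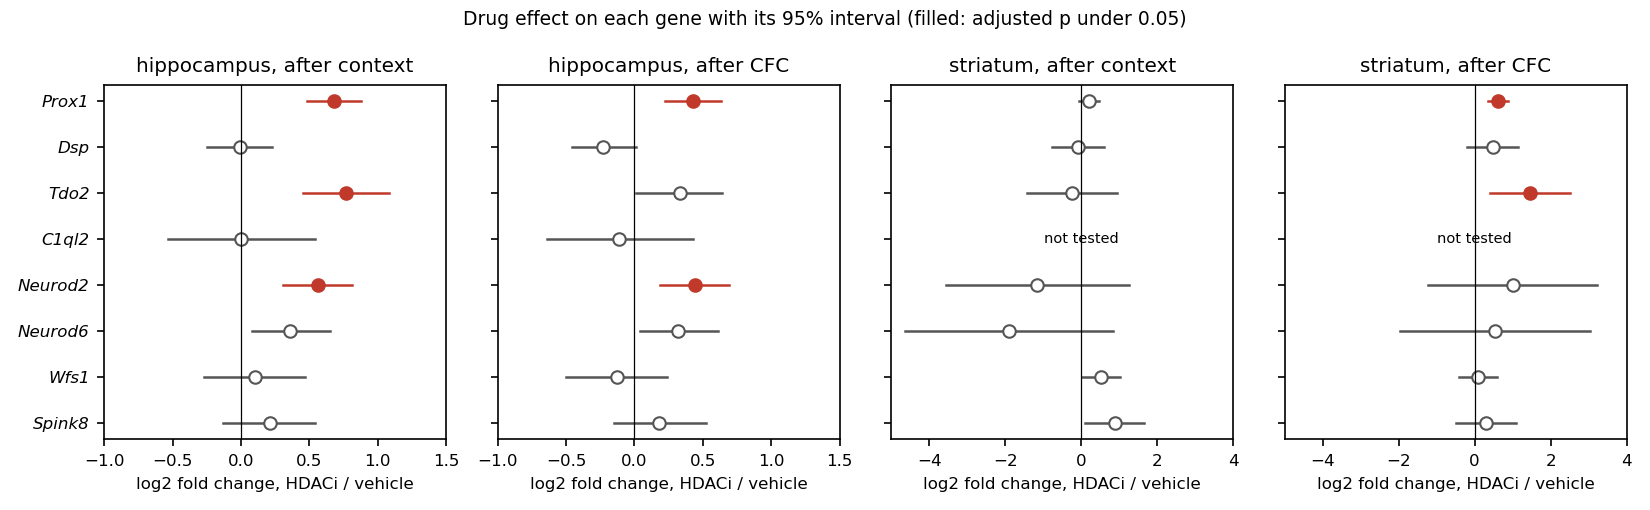
Log2 fold change of HDACi over vehicle (x axis) for each gene (y axis) with its 95% interval, in hippocampus and striatum after context and after CFC; filled red points have an adjusted p under 0.05, and the striatum panels have a wider axis. Prox1 is called in 3 of the 4 panels, and the intervals of Neurod2 and Neurod6 in striatum span several log2 units.

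The promoters of Prox1 and Neurod2, the genes called after both behaviours in hippocampus, are shown beside that of Neurod6, a gene of the same bHLH family as Neurod2. Each stretch runs from 200 to 51 bases before the RefSeq start (GRCm38.p6), 5′ to 3′ on the minus strand, and capitals mark the E-box CAGATG, a form of the short motif that bHLH factors bind. Other forms of this motif were not searched for. Where they occur they are left unmarked, as in the Neurod6 stretch (caaatg and cagttg). The positions are chr1:190170878-190171027 for Prox1, chr11:98329696-98329845 for Neurod2 and chr6:55681314-55681463 for Neurod6.
Prox1: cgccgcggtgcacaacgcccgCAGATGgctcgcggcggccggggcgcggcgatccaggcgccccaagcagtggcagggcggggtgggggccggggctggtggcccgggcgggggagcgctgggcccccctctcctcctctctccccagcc
Neurod2: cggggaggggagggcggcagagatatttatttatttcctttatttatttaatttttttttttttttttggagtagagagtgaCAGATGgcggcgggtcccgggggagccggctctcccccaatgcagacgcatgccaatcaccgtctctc
Neurod6: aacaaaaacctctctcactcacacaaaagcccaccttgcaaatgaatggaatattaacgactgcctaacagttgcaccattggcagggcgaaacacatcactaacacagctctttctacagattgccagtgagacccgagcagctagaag

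CAGATG was searched on both strands (reverse complement CATCTG) in the 250 bases before each start, where RefSeq lists promoters for 7 of the 8 genes. It occurred in the first of 2 Prox1 promoters at position -179, in that of Neurod2 at -118 and in that of Wfs1 at -170, counted from the start. The promoters of Dsp, Tdo2, C1ql2 and Neurod6 did not hold these letters. Of 32807 mouse promoters of that length, 14.5% held the motif. The cyclic AMP response element TGACGTCA, its own reverse complement, occurred in none of the promoters of these genes and in 1.55% of all.

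In striatum, Prox1 rose under the drug after conditioning and Tdo2 did so at the edge of detection, 2 of the 7 genes tested, where 24.2% of all tested genes were called and 9.57% called and higher. Prox1 read 15.8, 15, 11.4 and 14.1 CPM with vehicle and 19.5, 22.5, 23.4 and 20.6 CPM with HDACi. The groups stood apart, with a rise of 1.53-fold (log2 0.61, SE 0.122, adjusted p = 0.00162). It remained called without the 2 striatum libraries low in medium spiny neuron genes (log2 0.48, adjusted p = 0.0154). Within replicates 1 and 2 alone the change was 0.45 (adjusted p = 0.104) and within replicates 3 and 4 alone 0.77 (adjusted p = 0.0245).

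Tdo2 had 4, 3, 2 and 10 counts in the vehicle CFC libraries of striatum and 12, 16, 10 and 12 counts in the HDACi CFC libraries. On the CPM scale the groups did not overlap (log2 1.46, SE 0.501, adjusted p = 0.0439), but the call was lost with library size scaling, with DESeq2 and without a filter, and when any 1 of the 8 libraries other than vehicle CFC replicate 4 was left out (adjusted p = 0.0593 to 0.113). Without the 2 libraries low in medium spiny neuron genes it was 1.06 (adjusted p = 0.185). Groups apart were found for 2 of the 7 genes and for 23.6% of all tested genes. C1ql2 did not pass the filter on low counts in striatum, with 1 to 14 counts per library.

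After context none of the 7 genes tested in striatum was called by edgeR, beside 24.8% of all tested genes, 10.3% being called and higher. None had groups apart, which 28.6% of all tested genes had. At an unadjusted p under 0.05 there were 2 of the 7, Wfs1 and Spink8, beside 6667 of all 18256 tested genes, and DESeq2 called none of the 7. Wfs1 read 79.8, 123, 63.6 and 73.9 CPM with vehicle and 173, 90.8, 113 and 112 CPM with HDACi, and Spink8 0.355, 1.14, 0.471 and 0.875 CPM with vehicle and 1.99, 0.603, 1.23 and 1.41 CPM with HDACi. In each gene HDACi replicate 2 was the low library of its group and vehicle replicate 2 the high one. Replicate numbers were taken to pair these libraries too (lowest correlation 0.11), and with the block Wfs1 was called (log2 0.55, adjusted p = 0.0409). Here too, differently numbered pairs were not compared, so pairing by single number was not shown. In the pair of replicate 2 Wfs1 was lower with HDACi, at 90.8 against 123 CPM. Without vehicle context replicate 2 both were called, Wfs1 at a log2 change of 0.73 (adjusted p = 0.029) and Spink8 at 1.17 (adjusted p = 0.0393), and without HDACi context replicate 2 Spink8 was (log2 1.11, adjusted p = 0.031).

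Neurod2 and Neurod6 varied from library to library in striatum far more than with any treatment. Neurod6 ran from 0.338 to 29.3 CPM and Neurod2 from 0.101 to 12.5 CPM over the 16 libraries. Neurod6 read 9.34, 1.21, 3.48 and 19.8 CPM in vehicle context, 0.338, 0.556, 29.3 and 2.87 CPM in vehicle CFC, 0.688, 2.82, 0.851 and 4.71 CPM in HDACi context and 1.33, 24.6, 0.41 and 21.5 CPM in HDACi CFC libraries. The high libraries came from 3 of the 4 groups, and neither gene was called for the drug or for conditioning.

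The level of Neurod6 and of Neurod2 followed that of excitatory neuron genes, which medium spiny neurons largely lack. The mean of the other 7 genes of the excitatory neuron list was above 7 log2 CPM in 5 striatum libraries, and the 5 highest values of Neurod6, 9.34 CPM and above, and of Neurod2, 3.43 CPM and above, were in those 5. Slc17a7, the vesicular glutamate transporter of cortical and hippocampal neurons, ran from 3.51 to 340 CPM in striatum. Without those 5 libraries the log2 drug change of Neurod6 in striatum was -0.57 after conditioning and -0.07 after context, from 0.54 and -1.90 with them. Prox1 read 11.4 CPM in vehicle CFC replicate 3, its lowest value of that group, and 22.5 CPM in HDACi CFC replicate 2. Both libraries were high in excitatory genes. Within striatum groups Prox1 correlated with Neurod2 at -0.35 and with Neurod6 at -0.28. Its log2 rise after conditioning was 0.61 with all libraries and 0.50 without the 5 (adjusted p = 0.033). The part of excitatory neuron content in the Prox1 change was not tested.

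**Figure D4:**
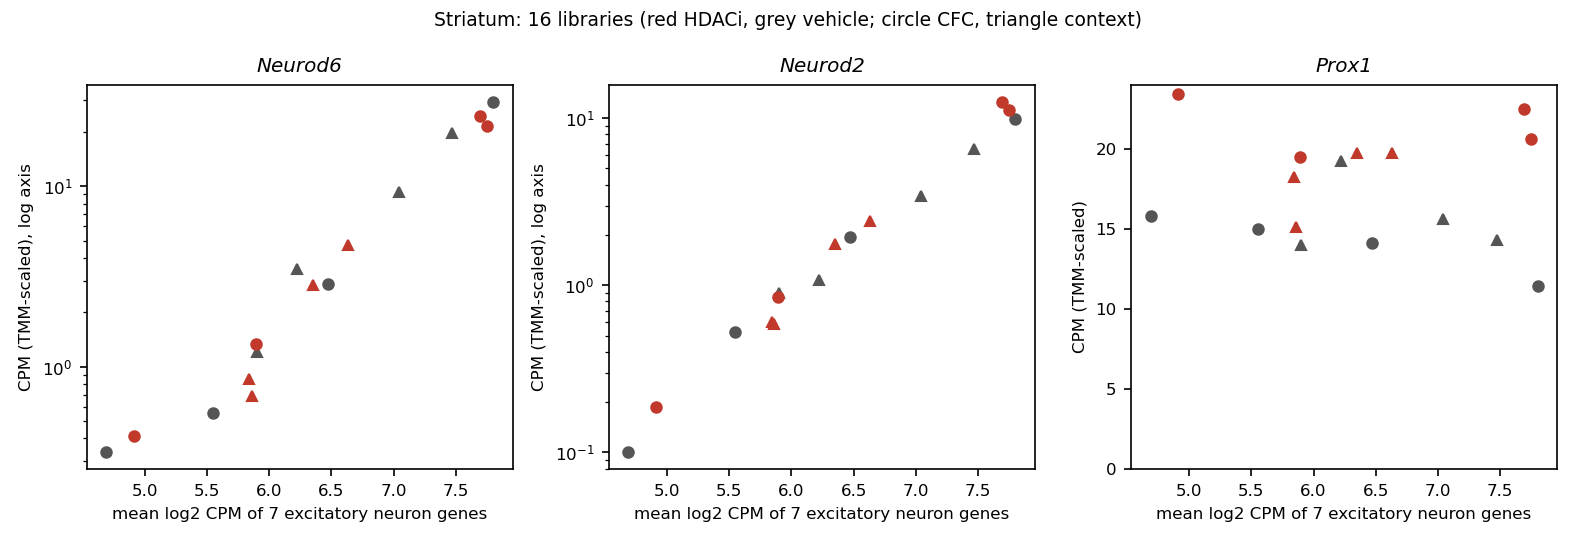
Striatal CPM of Neurod6 and Neurod2 (log axes) and of Prox1 (linear axis from 0) against the mean log2 CPM of 7 excitatory neuron genes in 16 libraries (red HDACi, grey vehicle; circles CFC, triangles context). Neurod6 climbs from 0.338 to 29.3 CPM along the x axis, while the 4 HDACi CFC libraries of Prox1 lie above the 4 vehicle CFC libraries.

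Of the 8 genes of the newborn granule neuron list tested in striatum, 5 rose under the drug after conditioning and 4 after context, where 9.57% and 10.3% of all tested genes were called and higher. Without the 2 libraries low in medium spiny neuron genes, 3 of the 8 rose after conditioning. Those that rose after both behaviours included Draxin, a secreted guidance protein (log2 2.03 and 2.16, adjusted p = 0.00473 and 0.00343). Eomes, a transcription factor of intermediate progenitors, was called after conditioning (log2 4.85) largely through 1 library at 5.24 CPM, the other 3 being at 0.0737, 0.336 and 0.55 CPM. Without that library and vehicle CFC replicate 3 it was still called (log2 3.64, adjusted p = 0.0274). Neurod1, the bHLH factor of newborn granule cells, stayed between 0 and 1.26 CPM in striatum. The summed level of the list was 42.7 to 64.1 CPM in vehicle context, 44.7 to 88.2 CPM in vehicle CFC, 64.6 to 145 CPM in HDACi context and 73.9 to 143 CPM in HDACi CFC libraries. Its part in the Prox1 change was not tested. In hippocampus Draxin was the 1 gene of this list, of 9, that rose (log2 0.71 after conditioning and 0.86 after context).

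None of the genes was called for conditioning itself. For CFC against context in hippocampus, edgeR called 0 of the 8 and 0% of all genes, both in vehicle mice (188 genes at an unadjusted p under 0.05, 1 called by DESeq2) and under HDACi (775 genes, 0 by DESeq2). In striatum it called 0 of the 7 and 0% of all genes in vehicle mice (216 genes, 0 by DESeq2) and under HDACi (988 genes, 2 by DESeq2). In vehicle mice the log2 changes in hippocampus ran from -0.09 for Spink8 to 0.19 for Wfs1. The interval for Prox1 was -0.16 to 0.25, below that of its drug effect after context (0.48 to 0.88). None of the 8 was at an unadjusted p under 0.05 in vehicle mice of either region, and DESeq2 called none of them.

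Prox1 under HDACi was lower after conditioning than after context in hippocampus (log2 -0.21, unadjusted p = 0.0426, adjusted p = 1), and in striatum it was higher (log2 0.24, unadjusted p = 0.0653). Whether the drug effect differed by behaviour was tested as an interaction, where edgeR called 0 of the 8 genes in hippocampus (390 genes at an unadjusted p under 0.05, 1 called by DESeq2) and 0 of the 7 in striatum (380 genes, 0 by DESeq2), beside 0% of all genes. Tdo2 in striatum was higher after conditioning than after context under HDACi (log2 1.44, unadjusted p = 0.0111, adjusted p = 0.839). The interaction was -0.26 for Prox1 and -0.44 for Tdo2 in hippocampus (unadjusted p = 0.0752 and 0.0521), and 0.40 and 1.69 in striatum (unadjusted p = 0.0325 and 0.0389). Without the 4 libraries that stood apart these values were -0.24 and -0.21 in hippocampus and 0.29 and 1.32 in striatum. A call of Tdo2 after context and not after conditioning in hippocampus is therefore not a shown difference.

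The drug effect was not shown to differ between the regions for any of the 8 genes by edgeR or by DESeq2, with 1 gene at an unadjusted p under 0.05 after context (Prox1) and 2 after conditioning (Dsp and Tdo2). After context 0.62% of all tested genes were called for that difference and after conditioning 0.266%. At an unadjusted p under 0.05 were 1485 and 1506 of all 19198 genes. Prox1 came nearest, with a log2 effect larger in hippocampus by 0.46 after context (95% interval 0.14 to 0.78, unadjusted p = 0.00657, adjusted p = 0.276). Without the 4 libraries that stood apart this was 0.56 (adjusted p = 0.0887), and after conditioning the difference for Prox1 went from -0.19 to 0.03, for Dsp from -0.71 to -0.40 and for Tdo2 from -1.13 to -0.43. The labels do not say whether the regions were taken from the same mice, and the fit treats all 32 libraries as independent.

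For granule cells, 5 of the 14 other marker genes rose in hippocampus after context and none fell, with a median log2 change of 0.32 against 0.01 over all genes. Over all tested genes 6.55% were called and higher. At an unadjusted p under 0.05 there were 9 of the 14, beside 5643 of all 18261 tested genes, and DESeq2 called 8. C1ql3, a relative of C1ql2 at the same synapses, rose by log2 0.41 (adjusted p = 0.00148). The other 4, named after their values were seen, were Calb1, Dock10, Fam163b and Rfx3. After conditioning edgeR called 0 of the 14, beside 7.42% of all tested genes called and higher, and the median was 0.12. At an unadjusted p under 0.05 were 2 of the 14, beside 5772 of all 18261 genes, and DESeq2 called 2. Without the 2 libraries high in choroid plexus genes edgeR called 3 of the 14, all higher.

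Mean levels of several lists were higher with HDACi in hippocampus after context, with no overlap between the groups. Of the 21 lists, these were astrocytes, interneurons, CA1 pyramidal, general excitatory and newborn granule neurons, and the NeuroD and Neurogenin family. The other lists overlapped. Groups apart were found for 22.4% of all tested single genes after context and 21.4% after conditioning. The CA1 list was at 5.59 to 5.63 log2 CPM in vehicle and 5.76 to 5.96 log2 CPM in HDACi libraries. The CA1, general excitatory and NeuroD lists hold some of the 8 genes. The granule cell list itself overlapped, at 6.06 to 6.42 and 6.36 to 6.68 log2 CPM. The mean level of 10 astrocyte genes was 7.11 to 7.39 log2 CPM in vehicle and 7.47 to 7.59 log2 CPM in HDACi libraries, with 2 of 10 genes called higher by edgeR and 6 called by DESeq2. That of 10 interneuron genes was 5.01 to 5.25 and 5.27 to 5.39 log2 CPM, with 0 called by edgeR, 2 at an unadjusted p under 0.05 and 1 called by DESeq2. Of 7 general excitatory neuron genes 3 rose. Over all tested genes 6.55% were called and higher after context, and 5643 of 18261 were at an unadjusted p under 0.05. After conditioning the lists with groups apart were astrocytes, interneurons, endothelial cells, CA1 pyramidal, CA3 and CA2 pyramidal and thalamic neurons, all higher with HDACi. The part of these lists in the changes of Prox1, Tdo2, Neurod2 and the granule cell markers was not tested.

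For CA1 pyramidal neurons, 2 of the 8 other markers rose after context, among them the transcription factor Pou3f1 (log2 0.31, adjusted p = 0.04). After conditioning edgeR and DESeq2 called 0 of the 8, with 1 at an unadjusted p under 0.05. Of 13 CA3 and CA2 markers, 0 were called after context by edgeR or DESeq2, none being at an unadjusted p under 0.05, and 2 rose after conditioning, Amigo2 (log2 0.42) and Coch (log2 1.01). Neither was called without the 2 libraries high in choroid plexus genes (log2 0.48, adjusted p = 0.0894, and log2 0.04, adjusted p = 0.964). These counts stand beside the 19.8% and 20.8% of all genes called, and 6.55% and 7.42% called and higher. Over all 18261 genes, 5643 after context and 5772 after conditioning were at an unadjusted p under 0.05.

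Among 7 other bHLH factors of the NeuroD and Neurogenin family and their E protein partners, Neurog2 (log2 0.85, adjusted p = 0.00407) and Tcf4 (log2 0.26, adjusted p = 0.0244) rose in hippocampus after context, and none was called after conditioning by edgeR or DESeq2 (2 at an unadjusted p under 0.05). Beside Tdo2, 5 genes of the kynurenine route were tested, and Kyat3, an aminotransferase that makes kynurenic acid, fell after both behaviours (log2 -0.54 after context, adjusted p = 0.004, and -0.46 after conditioning, adjusted p = 0.0103). The value after conditioning was -0.33 without the 2 libraries high in choroid plexus genes (adjusted p = 0.144). Of 15 genes of C1q-like and cerebellin proteins and their receptors, C1ql3 rose after context, and after conditioning edgeR called none and DESeq2 1. Of 6 other desmosomal plaque genes edgeR called none in hippocampus, with 1 at an unadjusted p under 0.05 after each behaviour, and DESeq2 called 1 after context. Over all tested genes, 19.8% were called after context and 20.8% after conditioning. Called and higher were 6.55% and 7.42%, and called and lower 13.2% and 13.4%. At an unadjusted p under 0.05 were 5643 and 5772 of 18261 genes. Whether a family held more calls than all genes was not tested.

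The endoplasmic reticulum stress response, which Wfs1 is known to restrain, is led by membrane sensors. Of its 16 other genes tested in hippocampus, 4 fell after conditioning and 4 fell and 1 rose after context, where 13.4% and 13.2% of all tested genes were called and lower. Wfs1 itself was not called. Eif2ak3, which encodes the stress sensor PERK, had log2 changes of -1.05 (adjusted p = 6.19e-08) and -1.17 (adjusted p = 2.92e-08), and Ern1, the sensor IRE1, of -0.71 and -0.83. Dnajb9, a chaperone induced by such stress, fell by 0.48 on the log2 scale after each behaviour. Without the 2 libraries high in choroid plexus genes 3 of 16 fell after conditioning, Eif2ak3 by 1.13, Ern1 by 0.76 and Dnajb9 by 0.43 on the log2 scale. In striatum 5 of 17 fell after each behaviour, beside 14.6% and 14.5% of all tested genes called and lower, Eif2ak3 again with log2 changes of -1.17 and -1.27.

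Within groups, the 4 genes richest in GC varied together. Transcript GC content ran from 39.6% for Tdo2 to 63.4% for C1ql2. Over the 16 hippocampus libraries, after each group's mean was subtracted, the 6 pairs among C1ql2, Neurod2, Wfs1 and Dsp, all over 50% GC, had a median Pearson r of 0.82 (0.76 to 0.88). The 6 pairs among the genes under 50% had a median of 0.33 (0.28 to 0.73). The 16 pairs of a gene over and a gene under 50% had a median of -0.14 (-0.65 to 0.68), a range that overlaps that of the pairs under 50%. These values are descriptions, since libraries share depth and preparation.

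C1ql2 read 40.7 and 27.7 CPM in vehicle context replicates 1 and 2 and 22.3 and 18.1 CPM in replicates 3 and 4, and its replicates 1 and 2 lay above replicates 3 and 4 in 4 of 4 hippocampus groups (log2 0.60, SE 0.1, adjusted p = 0.000415). Wfs1 (log2 0.37, adjusted p = 0.00283) and Neurod2 (log2 0.24, adjusted p = 0.00418) were higher in replicates 1 and 2 as well, and Spink8 was lower there in 4 of 4 groups (log2 -0.36, adjusted p = 0.000873). Thus 4 of the 8 genes differed between these replicate numbers, as did 35.7% of all tested genes. In striatum 1 of 7 did, Wfs1 (log2 0.46, adjusted p = 0.0169), beside 20.5%. The labels do not say what the numbers stand for, and each number occurs once in every group. Within replicates 1 and 2 the log2 drug change of Prox1 in hippocampus was 0.63 after context and 0.51 after conditioning, and within replicates 3 and 4 it was 0.74 and 0.35. Neither set alone gave a call of Prox1 after conditioning (adjusted p = 0.0793 and 0.053). For Neurod2 these values were 0.60 and 0.36, then 0.53 and 0.56. For Tdo2 they were 0.86 and 0.22, then 0.69 and 0.44.

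When each library's trends with GC content and transcript length were taken out, a choice made after seeing the data, the correlations changed. The 6 pairs among the granule cell genes Prox1, Dsp, Tdo2 and C1ql2 went from a median r of 0.32 (-0.04 to 0.78) to 0.79 (0.56 to 0.90). Prox1 and C1ql2, for example, went from 0.19 to 0.86. The 6 pairs among Neurod2, Neurod6, Wfs1 and Spink8 went from -0.22 (-0.48 to 0.84) to 0.58 (0.41 to 0.79), and Neurod2 with Neurod6 from -0.13 to 0.79. The 16 pairs that join the sets went from 0.30 to 0.15 (-0.05 to 0.51), a range that overlaps that of the second set. Wfs1 was at 0.51 with C1ql2, 0.42 with Dsp and 0.41 with Prox1, but at 0.04 with Tdo2. With Spink8, the other CA1 marker, it was at 0.41, and with Neurod2 and Neurod6 at 0.58 and 0.57.

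**Figure D5:**
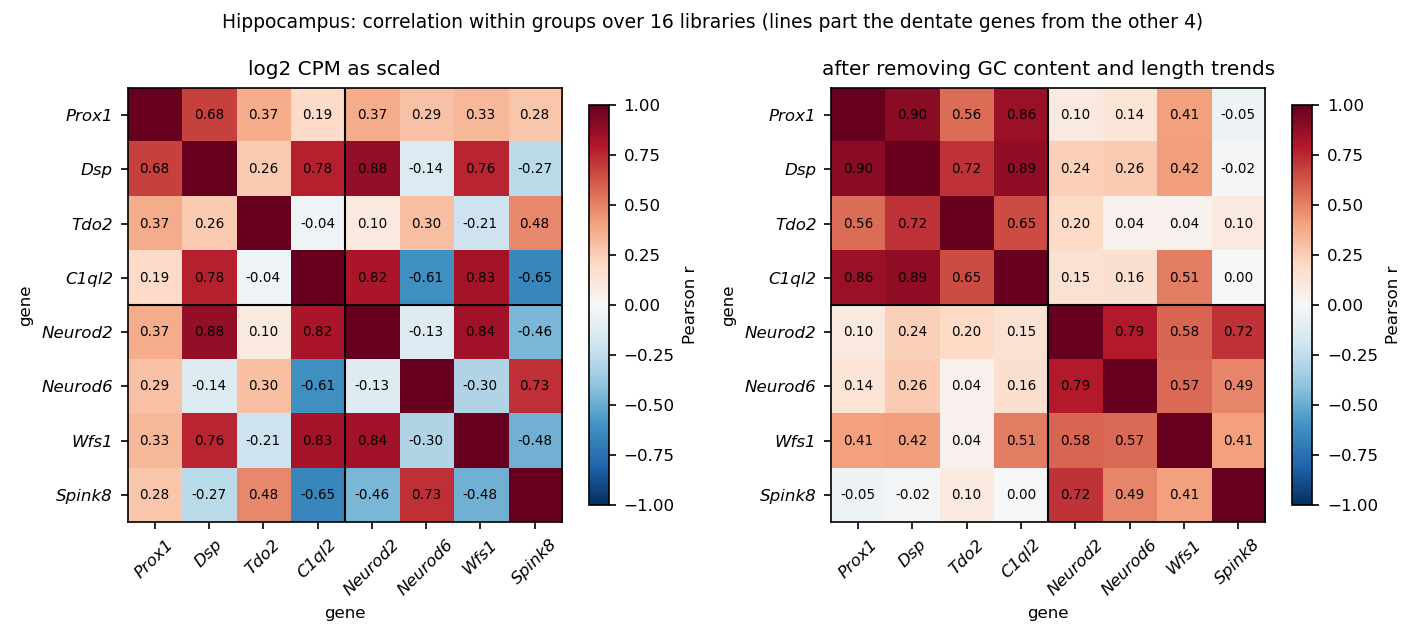
Pearson r between the genes over 16 hippocampus libraries after subtraction of group means, before (left) and after (right) each library's trends with GC content and transcript length were removed; black lines part the 4 granule cell genes from the other 4. On the right the 2 diagonal blocks hold medians of 0.79 and 0.58 and the other pairs a median of 0.15.

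Among 12310 genes compared over the same 16 libraries, with those trends still in the values, the pattern nearest to C1ql2 was that of Asphd2 (r = 0.99), then Ncdn and Itpka (0.98 each). Neurod6 was nearest to Camk1d (0.98), Fam19a1 (0.97) and Trhde (0.96), and Spink8 to Hnrnpc, Ncbp1 and Brms1l (0.95 each). Neurod2 was nearest to Camk2a (0.95), Syt7 and Itga7 (0.94 each), and Dsp to Fam163b (0.94), Kcnk1 and Orai2 (0.92 each). Wfs1 followed Srcap and Phc1 (0.92 each) and Bicra (0.90), Tdo2 followed Ncald (0.88), Mrpl57 (0.87) and Synpr (0.86), and Prox1 had the weakest neighbours, Sema5a (0.86), Maml2 and Mrtfb (0.83 each). In striatum Neurod2 and Neurod6 correlated at 0.98 within groups, and Prox1 with Neurod6 at -0.28.

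The genes lie on 7 chromosomes (mm10, GENCODE M21): Prox1 at chr1:190118035-190170714 and C1ql2 at chr1:120340582-120343174, Dsp at chr13:38151294-38198577, Tdo2 at chr3:81957090-81976202, Neurod2 at chr11:98325415-98329648, Neurod6 at chr6:55677822-55681263, Wfs1 at chr5:36966104-36989205 and Spink8 at chr9:109812280-109826633. The antisense gene Prox1os overlaps the start of Prox1, and the strand setting of the counting is not given in the sources used here. Prox1os had at most 219 counts in a library, against at least 4429 for Prox1 in hippocampus, and read 5.13 to 5.98 CPM in vehicle context and 4.97 to 6.29 CPM in HDACi context hippocampus.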

How the data were processed

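The authors deposited raw counts for each gene in 32 libraries of polyadenylated RNA, made with a stranded kit per the labels' protocols. The submitters' processing notes list, without their roles, STAR 2.6, bcl2fastq 2.20.0 and DESeq2, with mm10 as the build. The counting tool is not given in the sources used here. Of 54146 identifiers, 54079 matched a symbol in GENCODE M21, and the other 67 held at most 0.0264% of a library. Replicates differed by more than sampling noise (chi-square over degrees of freedom 5.77 to 67.7 for the pairs).

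Counts were fitted with edgeR 4.0.16 in R 4.3.3 (TMM scaling, filterByExpr, quasi-likelihood F test, two-sided) on the 16 libraries of a region (18261 genes in hippocampus, 18256 in striatum) or on all 32 libraries for contrasts between regions (19198 genes). p values were adjusted by Benjamini and Hochberg over all genes tested, and an adjusted p under 0.05 is a call. Library totals were 26026024 to 36670767. CPM values are scaled by TMM within a region's fit. Log2 CPM used a prior count of 2. Scripts were tested on simulated data. Groups came from sample titles. The p values rest on the spread among the 4 libraries within each group, pooled over all groups of a fit.

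The 8 genes and 21 gene lists were chosen with earlier results of these data known. Of each list, at most the 3 called genes with the smallest adjusted p per comparison are named, unless stated, and for each of the 8 genes the 3 genes of most similar pattern with a mean log2 CPM of at least 1. Alternatives were DESeq2 1.42.0, its size factors, library size scaling, no filter, a replicate block, a term for replicates 1 and 2 against 3 and 4, each of these sets alone, offsets for GC content and length, fits on fewer groups, and leaving out libraries. Numbers were taken to pair groups where each of the 4 same-numbered pairs had a correlation of deviations over 0.1. This held for HDACi against vehicle after context in both regions and, in hippocampus, for CFC against context. The values of 1 gene of the lists are not reported here.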

Additional observations from a re-analysis of the deposited data

Results flagged for a closer look

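Of 64 groups of 4 values (8 genes in 8 groups), 3 held a library whose gap to the nearest other value exceeded Dixon's critical share of the group's range, and chance gives such a gap in about 1 of 20 groups. Neurod2 in HDACi context replicate 1 of hippocampus read 125 CPM, against 101 to 103 CPM in the other 3 libraries. Neurod6 in vehicle CFC replicate 3 of striatum read 29.3 CPM, against 0.338 to 2.87 CPM. This library was also high in Slc17a7 (340 CPM). Tdo2 in HDACi context replicate 3 of striatum read 0.378 CPM, from 12 counts, against 0.0655 to 0.113 CPM.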

How the results depend on the processing

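The number of the 8 genes called moved as follows. A step of 1 between counts of 2, 3 and 4 was not taken as a move, except that ranges for 1 library left out are given in full. A count that did not move can stand for other genes. In hippocampus after conditioning, for example, leaving out the libraries that stand apart lost Neurod2 and gained Tdo2. In hippocampus after conditioning (2) it was 4 with the replicate block, 0 with replicates 1 and 2 alone, 1 with replicates 3 and 4 alone, 5 with the GC content and length offsets, and 1 to 3 when 1 library was left out. In hippocampus after context (3) it was 5 with the replicate block and 3 to 4 when 1 library was left out. In striatum after conditioning (2) it was 1 with library size scaling, DESeq2, no filter, the replicate block, replicates 3 and 4 alone, without the libraries that stand apart and without those high in excitatory neuron genes (the last added after seeing the data), 0 with replicates 1 and 2 alone, and 1 to 2 when 1 library was left out. In striatum after context (0) it was 1 with the replicate block, the term for replicate numbers, replicates 3 and 4 alone and the offsets, and 0 to 2 when 1 library was left out. The causes were not tested, except that sets of 2 replicates hold fewer libraries. Of the single-gene values under these settings, 2127 kept their side of the threshold, 23 gained a call and 21 lost one. These values cover all 13 comparisons, also those for conditioning and for interaction, where edgeR called no gene at all in the main fit. The 2127 are therefore no measure of how stable the drug calls were. No called change turned direction.

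Where numbers were not taken to pair the samples, the block added Dsp (log2 -0.23, adjusted p = 0.0246) and Neurod6 (log2 0.33, adjusted p = 0.0334) in hippocampus after conditioning. It lost Tdo2 in striatum (adjusted p = 0.0609). In the comparisons taken as paired the block changed no call of the 8 genes beyond those in the report.

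Over all genes, the drug calls in hippocampus after context went from 3612 to 5778 with the offsets and to 1497 and 1625 with replicates 1 and 2 or 3 and 4 alone. After conditioning they went from 3797 to 5695, 1642 and 1555, and to 2358 without the libraries that stand apart. In striatum after conditioning 4416 became 1401 and 2329 with these sets, and after context 4524 became 1520 and 2146. Calls for the region difference ran from 0 to 271 after context (119) and from 0 to 171 after conditioning (51). Of the called genes 60.4% fell in striatum and 64.3% in hippocampus after conditioning, and 76.5% and 76.4% with library size scaling. After context 58.5% and 66.9% became 78.6% and 81%. With the offsets the shares in hippocampus were 51% after conditioning and 48.9% after context. Library size scaling in place of TMM shifted the log2 drug changes by -0.06 to -0.11, as given by the groups' mean scaling factors. In striatum the counts of Dsp, Tdo2 and C1ql2, at most 21 in a library, limit what can be seen.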
